A study of Mus musculus with 6 samples.

Results

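The tumour necrosis factor (TNF) ligands and their receptors were followed across bulk RNA-seq libraries of mouse DN1 thymocytes (double-negative 1, the stage holding the earliest thymic progenitors). Members were taken by symbol: every Tnfrsf or Tnfsf gene with a number, together with Tnf, Lta, Ltb, Ltbr, Cd40, Cd40lg and Cd70. The rule found 38 of 24317 gene symbols. The 3 WT and 3 Tle134-deficient libraries came from sorted cells without lineage markers, TCRb, CD8a or CD25 and with CD44, from animals 5 to 8 weeks old. Tle134 was read as Tle1, Tle3 and Tle4, which encode Groucho/Tle corepressors. The labels name no allele, no Cre driver and no strain, nor whether replicates are different animals; the p-values therefore reflect variation among the 6 libraries, part of which could be technical.

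TNF ligands are mostly trimeric membrane proteins, some released by cleavage, and each binds 1 or a few receptors. Receptors with a death domain can recruit caspases, and most others bind TRAF adaptors and activate NF-kB, either through the canonical route or through NIK and p52/RelB. In the thymus, RANK, CD40 and lymphotoxin-beta receptor signals drive the growth of medullary epithelium, and in B cells BAFF receptor and CD40 carry survival and activation signals.

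Tle1, Tle3 and Tle4 were each higher on average in the libraries labelled Tle134-deficient, with log2 differences of 2.09, 1.33 and 0.58 (limma adjusted p = 0.0954, 0.234 and 0.726), against the direction of the label. The values cover whole loci and check the labels only in part, so the group is called labelled-deficient here. Cd44 was at 27.5 to 74.3 FPKM (fragments per kilobase, scaled to each library's mapped total) in the 6 libraries. Il2ra, which encodes CD25, was at 1.69 to 7.36 FPKM and Cd8a at 0 to 2.48 FPKM. The deposited intervals imply 1418482 to 4337733 fragments in named loci per library, with WT replicate 1 and labelled-deficient replicate 1 the shallowest.

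The members formed 36 measurable genes or gene units, 15 of ligands and 21 of receptors. Tnfsf12 and Tnfsf13 share 1 row in all 6 tables and form 1 unit. Tnfrsf4, the OX40 receptor, shares a row with its neighbour Sdf4 in WT replicate 3, where the joint value is 81.0 FPKM. On its own it had 2.34 and 0.930 FPKM in WT replicates 1 and 2, and values of 0.874, 3.68 and 1.36 FPKM were listed for labelled-deficient replicates 1 to 3, so it is not counted further.

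Upstream sequence is shown for 3 members on which the results turn: Tnfrsf13c, which rose; Ltb, the member with the highest mean over the 6 libraries; and Tnfrsf21, whose groups did not overlap and which was lower. RefSeq promoter entries (build GRCm38.p6, not the mm9 of the tables) matched 28 of the 38 symbols, and Cd40 was not among them. Each line gives the 250 bases before the start site, 5′ to 3′ on the gene's strand, with matched motif letters in capitals. The Tnfrsf13c window is chr15:82224381-82224630 on the minus strand, that of Ltb chr17:35194257-35194506 on the plus strand and that of Tnfrsf21 chr17:43016305-43016554 on the plus strand.
Tnfrsf13c: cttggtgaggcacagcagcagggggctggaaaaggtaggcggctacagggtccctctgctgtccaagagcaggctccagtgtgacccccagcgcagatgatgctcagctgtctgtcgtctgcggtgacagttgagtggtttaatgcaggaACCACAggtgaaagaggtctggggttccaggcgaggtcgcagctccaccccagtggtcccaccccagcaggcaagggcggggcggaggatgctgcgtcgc
Ltb: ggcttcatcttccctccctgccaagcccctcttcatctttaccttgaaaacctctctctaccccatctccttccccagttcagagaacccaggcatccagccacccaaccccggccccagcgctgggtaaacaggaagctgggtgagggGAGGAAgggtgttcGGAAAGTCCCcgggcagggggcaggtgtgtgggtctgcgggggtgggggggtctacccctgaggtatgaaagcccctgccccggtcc
Tnfrsf21: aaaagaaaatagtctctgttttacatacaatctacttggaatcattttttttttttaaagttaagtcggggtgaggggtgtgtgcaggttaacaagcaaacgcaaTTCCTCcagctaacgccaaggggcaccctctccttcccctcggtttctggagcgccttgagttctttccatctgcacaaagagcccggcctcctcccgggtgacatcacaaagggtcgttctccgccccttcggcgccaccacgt

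The motifs searched on both strands were CTTTGA for Tcf/Lef, TGTGGT for Runx, GAGGAA for PU.1/Ets and the NF-kB consensus. The Tnfrsf13c window holds a Runx match 100 to 95 bases before the start. The Ltb window holds a PU.1/Ets match 101 to 96 bases before the start and an NF-kB match 87 to 78 bases before it, and the 2 do not overlap. The Tnfrsf21 window holds a PU.1/Ets match 145 to 140 bases before the start. Among the 32 member windows, the NF-kB consensus was in 3 (9.38%, against 3.90% of 32851 windows of all genes) and the PU.1/Ets motif in 12 (37.5% against 23.3%). The Tcf/Lef motif was in 5 (15.6% against 13.8%) and the Runx motif in 3 (9.38% against 14.0%). A match is a string of letters and was not tested as a binding site.

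Expression of the family was broad but mostly low. In each group 26 of the 36 units had a mean of 1 FPKM or more, and 6 in WT and 8 in labelled-deficient libraries had a mean of 10 FPKM or more. In WT the order by mean FPKM began with Tnfrsf14, Ltb, Tnfrsf1a, Tnfrsf13b, Tnfrsf21 and Tnfsf11, and in labelled-deficient libraries with Ltb, Tnfrsf13c, Cd40, Tnfrsf13b, Tnfrsf25 and Tnfrsf18. Tnfrsf13c stood at rank 18 in WT and rank 2 in labelled-deficient libraries, and Cd40 at rank 23 and rank 3. Many neighbours in these orders did not differ beyond their spread: the WT leader Tnfrsf14 ran from 9.53 to 65.2 FPKM, across the whole range of Ltb (21.4 to 34.5 FPKM).

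**Figure D1:**
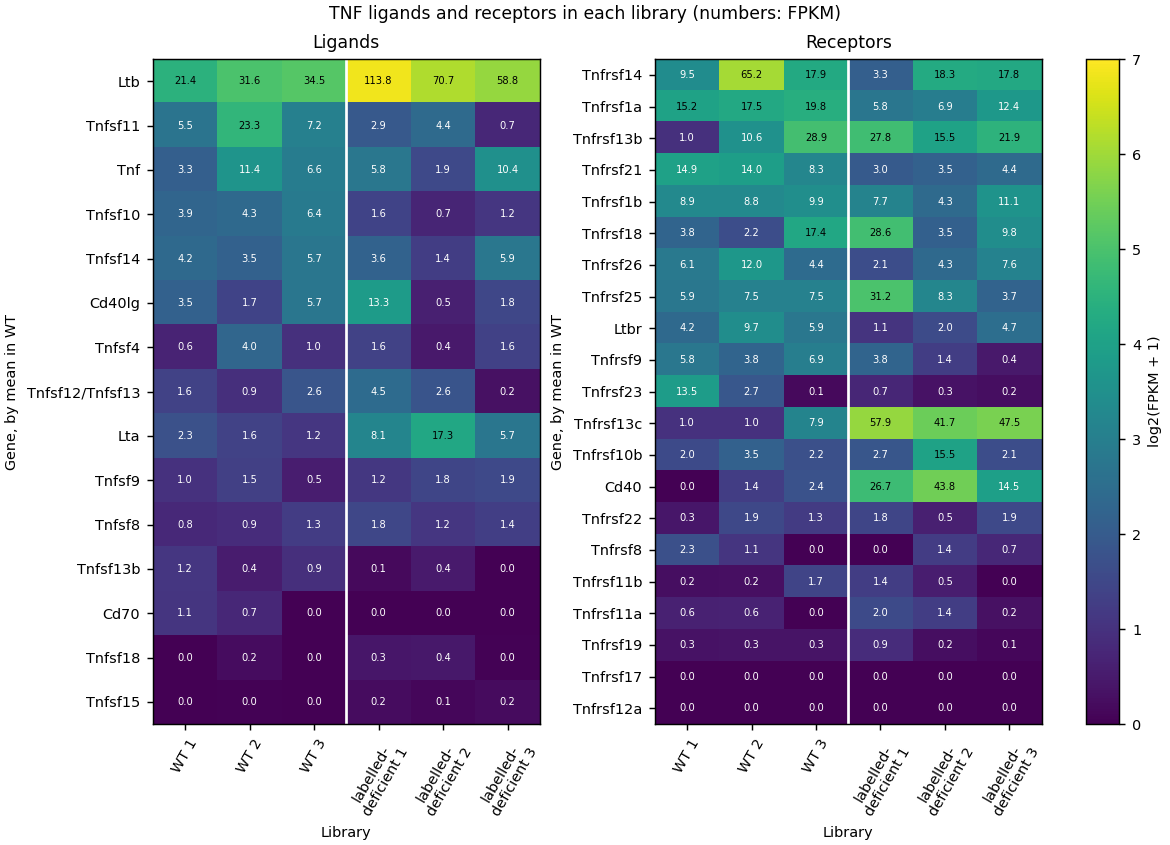
FPKM of 15 ligand and 21 receptor units (rows, ordered by mean in WT) in each of the 6 libraries (columns), coloured by log2(FPKM + 1). Tnfrsf13c is at 41.7 to 57.9 FPKM in the labelled-deficient columns against 1.01 to 7.88 FPKM in WT, and most other rows show no such step.

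Of the 36 units, 26 reached 1 FPKM in at least 3 libraries and were tested in a fit over all genes. Tnfrsf13c and Cd40 rose in the labelled-deficient libraries, 0 members fell and 24 did not pass (limma, adjusted p under 0.05 over all genes). Over all 11063 genes tested, 0.642% were called higher and 0.108% lower. At an unadjusted p under 0.05, 4 members were higher and 5 lower, where the shares over all genes were 5.68% and 4.35%. The median log2 difference of the 26 members was -0.19, against 0.04 over all genes, with 12 differences above 0 and 14 below. The members' values thus spread to both sides rather than shifting together. The member groups did not overlap for 8 of 26: 4 higher and 4 lower in labelled-deficient libraries, where 8.67% and 6.56% of all genes did so.

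**Figure D2:**
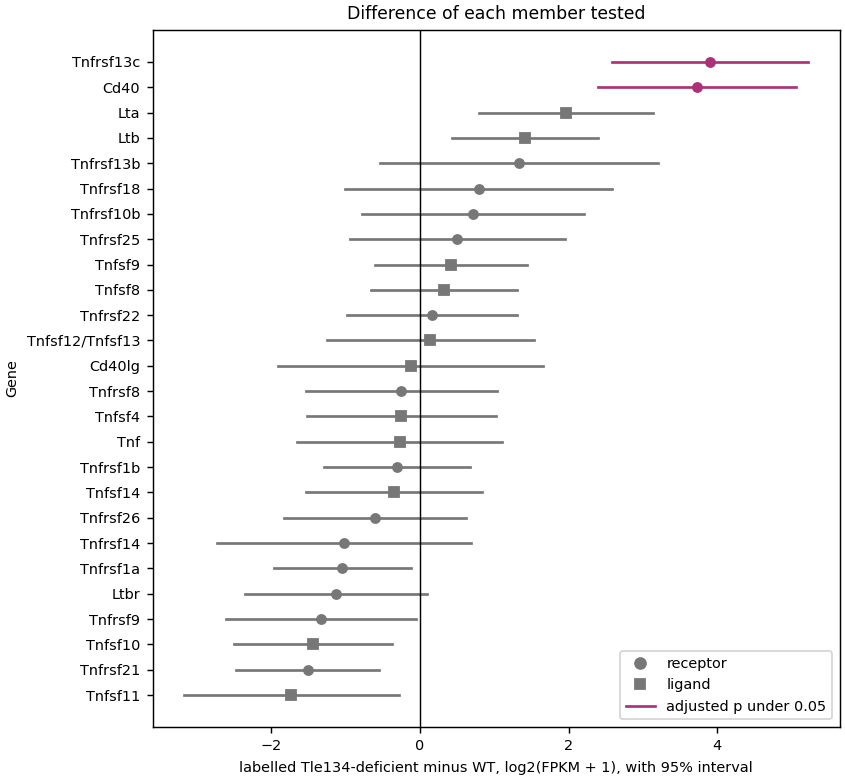
Difference between the labelled-deficient and WT means on the log2(FPKM + 1) scale for the 26 members tested (points, circles for receptors and squares for ligands) with 95% intervals from limma. Tnfrsf13c (3.91) and Cd40 (3.73) stand at the top, and the largest difference below 0 is that of Tnfsf11 (-1.73).

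Tnfrsf13c (chromosome 15, 82052174 to 82054766, mm9) encodes the BAFF receptor, a survival receptor of maturing B cells. It was at 1.01, 1.02 and 7.88 FPKM in WT replicates 1 to 3 and at 57.9, 41.7 and 47.5 FPKM in labelled-deficient replicates 1 to 3. The lowest labelled-deficient library lay above the highest WT library, and WT replicate 3 stood above the other WT libraries. The means were 3.30 ± 3.96 and 49.0 ± 8.23 FPKM (SD, n = 3 each), and the log2 difference was 3.91 ± 0.59 (SE, limma adjusted p = 0.0279). The intervals imply 9.09 to 923 fragments at this locus per library. The call held without WT replicate 3 (adjusted p = 0.00817) and was lost without any other library: the adjusted p was then 0.0506 without labelled-deficient replicate 3 and up to 0.126 without WT replicate 1. It was also lost without the filter on low values (adjusted p = 0.0806).

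Tnfrsf13b (TACI), which binds both BAFF and APRIL, overlapped between the groups. It was at 0.971, 10.6 and 28.9 FPKM over WT replicates 1 to 3, and labelled-deficient replicates 1 to 3 gave 27.8, 15.5 and 21.9 FPKM. WT replicate 3 was the highest of the 6 and WT replicate 1 the lowest, with a wide interval (log2 difference 1.33, 95% interval -0.54 to 3.20, limma adjusted p = 0.692). The Tnfrsf13b difference was 0.25 without WT replicate 1, whose interval implies about 3 fragments, and 2.21 without WT replicate 3. The span of the assembled Tnfrsf13b locus also differed between tables. Tnfrsf17 (BCMA), the APRIL receptor of plasma cells, was listed at 0 in all 6 libraries.

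The ligands of these receptors were low. Tnfsf13b, which encodes BAFF, was at 1.15, 0.445 and 0.915 FPKM among WT libraries, compared with 0.138, 0.424 and 0 FPKM among labelled-deficient ones. It was below the level needed for a test. Each labelled-deficient value lay below each WT value, where 6.56% of all genes tested were lower without overlap. The closest 2 values, 0.445 and 0.424 FPKM, had overlapping deposited intervals (0.150 to 0.740 and 0.141 to 0.707 FPKM), so this order is near the floor. The Tnfsf12/Tnfsf13 unit (TWEAK and APRIL) was at 1.63, 0.907 and 2.63 FPKM across the WT libraries, against 4.47, 2.56 and 0.246 FPKM across the labelled-deficient ones, with overlap. Tnfrsf12a, the TWEAK receptor, was listed at 0 in all 6 libraries.

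Cd40 (chromosome 2, 164881136 to 164897154, mm9) encodes the receptor through which helper T cells activate B cells, dendritic cells and thymic epithelium. It was listed at 0 in WT replicate 1 and was at 1.42 and 2.41 FPKM in WT replicates 2 and 3. In labelled-deficient replicates 1 to 3 it was at 26.7, 43.8 and 14.5 FPKM, all above WT. The log2 difference was 3.73 ± 0.60 (SE, limma adjusted p = 0.0285). The precision was uneven: the deposited interval ran from 0 to 7.89 FPKM (about 0.19 fragments) in WT replicate 2, from 3.88 to 49.5 FPKM (about 5.48 fragments) in labelled-deficient replicate 1 and from 39.5 to 48.2 FPKM in labelled-deficient replicate 2. The first 2 of these intervals overlap. The Cd40 call was lost with a pseudocount of 0.1 FPKM (adjusted p = 0.0992), without the filter on low values (0.0896) and on leaving out WT replicate 1 (0.126) or 2 (0.0720), or labelled-deficient replicate 1 (0.129) or 2 (0.136).

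Cd40lg, the ligand of CD40 and a product of activated T cells, overlapped between the groups. It was at 3.48, 1.67 and 5.74 FPKM over WT replicates 1 to 3, and labelled-deficient replicates 1 to 3 gave 13.3, 0.542 and 1.79 FPKM. Labelled-deficient replicate 1 was the highest of the 6 and replicate 2 the lowest (log2 difference -0.13, 95% interval -1.92 to 1.66, limma adjusted p = 0.987).

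Markers of B cells moved with Tnfrsf13c and Cd40. Of 14 B-lineage markers (Cd79a, Cd79b, Ms4a1, Cd22, Pax5, Ebf1, Blk, Fcer2a, Cr2, Fcrla, Bank1, Vpreb3, Cd72 and Pou2af1), 9 rose, 0 fell and 5 did not pass (limma). Those 9 calls became 0 without the filter on low values and on leaving out WT replicate 1 or either of labelled-deficient replicates 1 and 2, and 1 on leaving out WT replicate 2, while 14 of 14 differences were above 0 in each of these fits. Their summed level was 95.9, 76.6 and 181 FPKM among WT libraries, against 1209, 1014 and 749 FPKM among labelled-deficient ones. Cr2 was listed at 0 in WT replicates 1 and 3 and Vpreb3 in WT replicates 2 and 3, and the other 12 were above 0 in each library. Their part in the member results was not tested. In bulk RNA, more or fewer cells of a type cannot be told apart from more or less RNA per cell.

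Set against the summed B-lineage level, the members differed among themselves. Per 100 FPKM of the 14 markers, Tnfrsf13c was at 1.06, 1.33 and 4.35 FPKM among WT libraries, compared with 4.79, 4.11 and 6.34 FPKM among labelled-deficient ones, so that WT replicate 3 lay within the labelled-deficient range. Cd40 on the same scale was at 0, 1.85 and 1.33 FPKM across the WT libraries, against 2.21, 4.32 and 1.94 FPKM across the labelled-deficient ones; these did not overlap, but WT replicate 2 rests on the wide interval given above. Tnfrsf13b on this scale was higher in WT replicates 2 and 3 than in any labelled-deficient library, at 1.01, 13.8 and 15.99 FPKM over WT replicates 1 to 3, and labelled-deficient replicates 1 to 3 gave 2.30, 1.53 and 2.92 FPKM. These ratios were chosen after the values were seen and carry no test. A member that rises less than the marker sum comes out lower on this scale by construction.

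**Figure D3:**
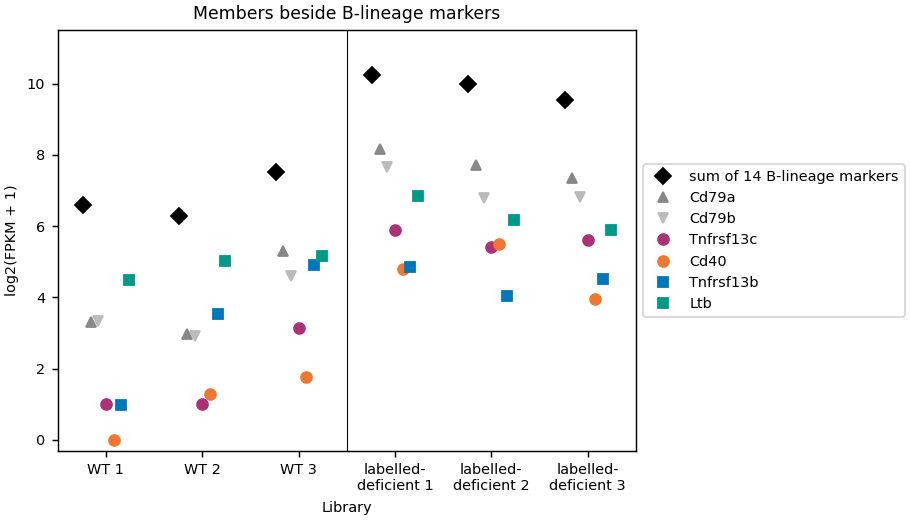
Tnfrsf13c, Cd40, Tnfrsf13b and Ltb beside Cd79a, Cd79b and the sum of 14 B-lineage markers in each library, as log2(FPKM + 1). The marker sum is 76.6 to 181 FPKM in WT and 749 to 1209 FPKM in labelled-deficient libraries, and Tnfrsf13c and Cd40 are low in WT and high in labelled-deficient libraries, while Tnfrsf13b is also high in WT replicate 3.

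Lymphotoxin genes lie beside Tnf in the class III region of the major histocompatibility complex on chromosome 17, and the order of the groups differed among these 3 neighbours. Ltb (35331452 to 35333250, mm9) encodes the membrane-bound lymphotoxin-beta chain, made by lymphocytes and lymphoid tissue inducer cells. It was at 21.4, 31.6 and 34.5 FPKM among WT libraries, compared with 114, 70.7 and 58.8 FPKM among labelled-deficient ones. Each labelled-deficient library lay above each WT library, but the log2 difference of 1.41 ± 0.44 did not pass over all genes (SE, limma adjusted p = 0.241).

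Lta (35340110 to 35342296) encodes lymphotoxin-alpha, which is secreted alone or joins lymphotoxin-beta at the membrane. It was at 2.34, 1.58 and 1.16 FPKM across the WT libraries, against 8.07, 17.3 and 5.70 FPKM across the labelled-deficient ones, without overlap (log2 difference 1.96 ± 0.52, SE, limma adjusted p = 0.161). Tnf (35336312 to 35338952) lies between them and was at 3.33, 11.4 and 6.61 FPKM over WT replicates 1 to 3, and labelled-deficient replicates 1 to 3 gave 5.83, 1.95 and 10.4 FPKM. Its groups overlapped, with WT replicate 2 the highest and labelled-deficient replicate 2 the lowest (log2 difference -0.28, 95% interval -1.65 to 1.10, limma adjusted p = 0.961).

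Per 100 FPKM of B-lineage markers, Ltb was at 22.3, 41.3 and 19.05 FPKM among WT libraries, compared with 9.41, 6.97 and 7.85 FPKM among labelled-deficient ones. This reverses its order in FPKM, but the marker sum rose more than Ltb did. The lower ratio therefore follows from the divisor and does not show which cells express Ltb. Lta on that scale overlapped between the groups, at 2.44, 2.07 and 0.643 FPKM across the WT libraries, against 0.667, 1.70 and 0.761 FPKM across the labelled-deficient ones. Ltbr, the receptor of the lymphotoxin heterotrimer, known mainly from stromal and myeloid cells, was at 4.23, 9.69 and 5.85 FPKM over WT replicates 1 to 3, and labelled-deficient replicates 1 to 3 gave 1.09, 2.03 and 4.73 FPKM. It thus lay lower on average where its ligand genes lay higher, though labelled-deficient replicate 3 was above WT replicate 1 (log2 difference -1.14, 95% interval -2.36 to 0.09, limma adjusted p = 0.546).

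Of 4 death-domain receptors among the members tested, Tnfrsf21 and Tnfrsf1a were lower in each labelled-deficient library than in any WT library. Over all genes tested, 6.56% were lower without overlap. Tnfrsf25 and Tnfrsf10b overlapped, and none of the 4 passed over all genes. Fas and Ngfr, death-domain receptors outside the name rule, also overlapped (log2 differences 0.38 and 0.58). Tnfrsf21 (death receptor 6; chromosome 17, 43153504 to 43226137, mm9) was at 14.9, 14.0 and 8.32 FPKM among WT libraries, compared with 2.98, 3.49 and 4.37 FPKM among labelled-deficient ones. The groups did not overlap (log2 difference -1.51 ± 0.43, SE, limma adjusted p = 0.200). Tnfrsf1a (TNF receptor 1, the broadly expressed receptor of TNF and lymphotoxin-alpha) was at 15.2, 17.5 and 19.8 FPKM across the WT libraries, against 5.78, 6.85 and 12.4 FPKM across the labelled-deficient ones, again without overlap (log2 difference -1.04 ± 0.41, SE, limma adjusted p = 0.411). Labelled-deficient replicate 3 was the closest to WT for both receptors, and its 12 myeloid markers found summed to 1763 FPKM, against 126 to 577 FPKM in the other 5 libraries. The highest of these markers in that library were Mpo, Ngp, S100a9 and Elane, at 589, 340, 333 and 266 FPKM. Over WT replicates 1 to 3 the sums were 138, 294 and 577 FPKM, and in WT replicate 3 Tnfrsf21 was the lowest and Tnfrsf1a the highest of WT. The part of myeloid cells in these values was not tested.

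The other death-domain receptors overlapped. Tnfrsf25 (death receptor 3), known from T cells and innate lymphoid cells, was at 5.89, 7.45 and 7.49 FPKM over WT replicates 1 to 3, and labelled-deficient replicates 1 to 3 gave 31.2, 8.29 and 3.69 FPKM. Its deposited intervals were wide in WT replicate 1 (1.19 to 10.6 FPKM, about 6.28 fragments) and WT replicate 3 (0 to 15.1 FPKM, about 3.90 fragments). Tnfrsf10b, the mouse TRAIL receptor, was at 1.96, 3.52 and 2.24 FPKM among WT libraries, compared with 2.68, 15.5 and 2.14 FPKM among labelled-deficient ones. In each case 1 labelled-deficient library carried the higher mean: replicate 1 for Tnfrsf25 and replicate 2 for Tnfrsf10b, without which the log2 differences were -0.26 and -0.05.

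Tnfrsf1b (TNF receptor 2), without a death domain and known from regulatory T cells and myeloid cells, was among the steadiest members. It was at 8.86, 8.82 and 9.92 FPKM across the WT libraries, against 7.70, 4.32 and 11.1 FPKM across the labelled-deficient ones (log2 difference -0.31, 95% interval -1.29 to 0.68, limma adjusted p = 0.914). Labelled-deficient replicate 2 was the lowest of the 6, and its deposited interval is wide, equal to that of about 3.07 fragments.

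The ligands TRAIL and RANKL were lower in each labelled-deficient library than in any WT library. Tnfsf10 (TRAIL, a ligand that can trigger apoptosis; chromosome 3, 27215999 to 27238587, mm9) was at 3.88, 4.28 and 6.40 FPKM over WT replicates 1 to 3, and labelled-deficient replicates 1 to 3 gave 1.63, 0.662 and 1.16 FPKM (log2 difference -1.44 ± 0.48, SE, limma adjusted p = 0.284). Tnfsf11 (RANKL, which in the thymus is made by innate lymphoid and T cells and acts on medullary epithelium; chromosome 14, 78677253 to 78707850 in 5 of 6 tables) was at 5.49, 23.3 and 7.20 FPKM among WT libraries, compared with 2.86, 4.37 and 0.701 FPKM among labelled-deficient ones. WT replicate 2 stood well above the other WT libraries, and without it the log2 difference moved from -1.73 (limma adjusted p = 0.363) to -1.15.

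The 8 innate lymphoid and NK markers summed to 50.5 to 132 FPKM in WT and 52.2 to 93.5 FPKM in labelled-deficient libraries. The receptors of RANKL were barely detected. Tnfrsf11a (RANK) was at 0.568, 0.588 and 0 FPKM across the WT libraries, against 1.96, 1.41 and 0.235 FPKM across the labelled-deficient ones. Tnfrsf11b (osteoprotegerin, a soluble decoy) was at 0 to 1.70 FPKM over the 6 libraries. Neither reached the level needed for a test.

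**Figure D4:**
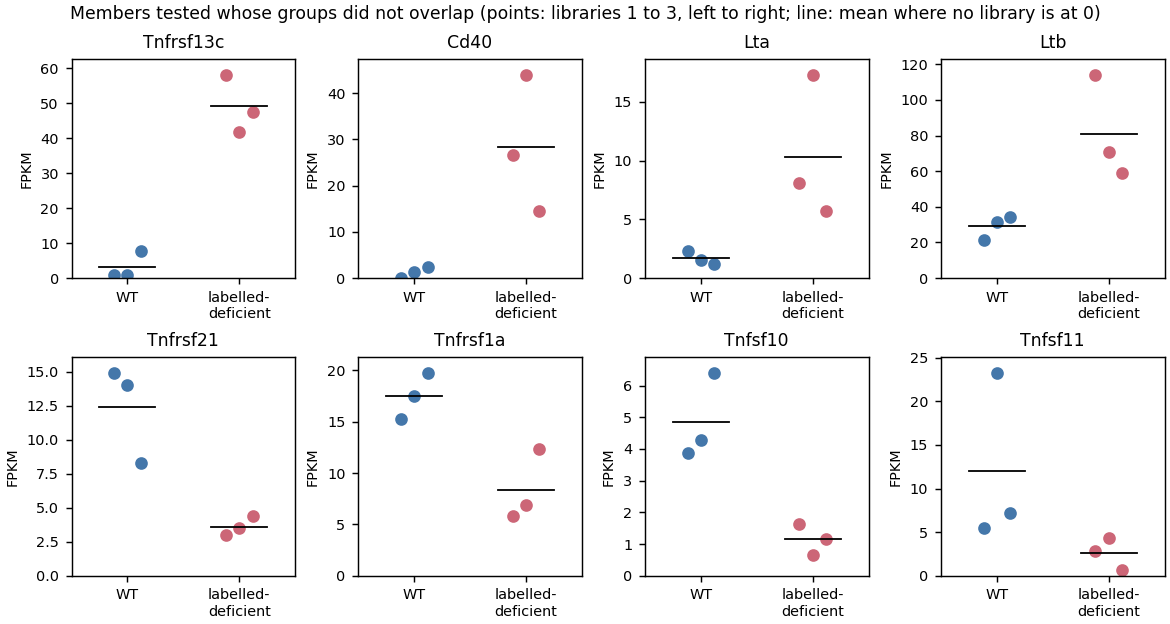
FPKM in each library (points) of the 8 members tested whose WT and labelled-deficient values did not overlap, with the mean as a line where no library is at 0. Tnfrsf13c, Cd40, Lta and Ltb lie higher and Tnfrsf21, Tnfrsf1a, Tnfsf10 and Tnfsf11 lower in labelled-deficient libraries, and the first 2 passed the test over all genes.

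Summed markers of T-lineage and mast cells, and of a joint list of stromal, endothelial and epithelial cells, were lower on average in labelled-deficient libraries, as these 4 members were. The 12 T-lineage markers summed to 1035, 484 and 1247 FPKM over WT replicates 1 to 3, and labelled-deficient replicates 1 to 3 gave 814, 359 and 242 FPKM. Of their differences 12 of 12 were below 0 and 0 passed the threshold (limma). Cd247 alone was lower without overlap, 1 of 12 where 6.56% of all genes were. It was at 39.7 to 106 FPKM in WT and 11.7 to 22.6 FPKM in labelled-deficient libraries (limma adjusted p = 0.0897). Cd247 and Gata3, 2 of 12, were lower at an unadjusted p under 0.05 in limma, where 4.35% of all genes were. The 7 mast and basophil markers summed to 99.1, 53.6 and 209 FPKM among WT libraries, compared with 1.80, 4.53 and 113 FPKM among labelled-deficient ones, with 0 past the threshold. Of their log2 differences 6 were below 0 and 1 above. Ms4a2, Gata2 and Hdc had higher mean FPKM in labelled-deficient libraries, carried by replicate 3 at 30.1, 32.3 and 27.9 FPKM. Of 11 stromal, endothelial and thymic epithelial markers 7 were tested and 1 fell (Pdgfrb), with sums of 153, 65.5 and 97.7 FPKM among WT libraries, against 82.0, 66.0 and 39.5 FPKM among labelled-deficient ones. The members of this list did not lie to 1 side: 3 of the 7 differences were above 0 and 4 below. Pecam1 (17.3 to 21.7 FPKM in WT and 30.0 to 39.9 FPKM in labelled-deficient libraries) and the Krt73/Krt8 unit (0.388 to 1.42 and 1.54 to 15.8 FPKM) were higher without overlap (limma adjusted p = 0.506 and 0.363). The Pdgfra unit (4.12 to 13.4 and 0.234 to 2.31 FPKM, limma adjusted p = 0.196) and Pdgfrb were lower without overlap. Over all genes, 8.67% were higher and 6.56% lower without overlap. At an unadjusted p under 0.05 in limma, Pdgfra, Pdgfrb, Col1a1 and Col1a2 were lower and Krt73/Krt8 higher. Over all genes 4.35% and 5.68% were so. Epcam was at 1.84 to 4.05 FPKM, Foxn1 at 0 to 0.560 FPKM and Krt5 at 0 to 0.0707 FPKM over the 6 libraries. The part of these cells in the member results was not tested.

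Costimulatory receptors of T cells mostly overlapped. Tnfrsf14 (HVEM, the receptor of LIGHT and BTLA) was at 9.53, 65.2 and 17.9 FPKM across the WT libraries, against 3.35, 18.3 and 17.8 FPKM across the labelled-deficient ones. WT replicate 2 was far above the other libraries and labelled-deficient replicate 1 below them. The log2 difference of Tnfrsf14 was -1.02 with all libraries (limma adjusted p = 0.752), -0.28 without the former and -0.31 without the latter. Tnfrsf18 (GITR, high on regulatory T cells) was at 3.80, 2.16 and 17.4 FPKM over WT replicates 1 to 3, and labelled-deficient replicates 1 to 3 gave 28.6, 3.47 and 9.83 FPKM, so that libraries of 1 group differed more than the group means. The Foxp3 unit (with Ppp1r3fos) was at 0, 1.13 and 0 FPKM in WT replicates 1 to 3. It was at 3.47, 1.89 and 0.823 FPKM in labelled-deficient replicates 1 to 3 (limma adjusted p = 0.521). Of 8 mature and regulatory T-cell markers, 7 were tested, with 5 differences above 0, 2 below and 0 past the threshold. Il2ra was higher and Icos lower without overlap, where 8.67% and 6.56% of all genes were so. The part of these cells in the Tnfrsf18 values was not tested.

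Tnfrsf9 (4-1BB, induced on activated lymphocytes) came close to separation. It was at 5.80, 3.75 and 6.92 FPKM among WT libraries, compared with 3.82, 1.39 and 0.397 FPKM among labelled-deficient ones. Labelled-deficient replicate 1 lay just above WT replicate 2 (log2 difference -1.33 ± 0.57, SE, limma adjusted p = 0.467). Tnfrsf8 (CD30) was lower, at 0 to 2.27 FPKM over the 6 libraries.

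The ligands of these receptors were at a few FPKM or less and, apart from Tnfsf15, overlapped. Tnfsf14 (LIGHT) was at 1.44 to 5.87 FPKM, Tnfsf4 (OX40 ligand) at 0.401 to 3.99 FPKM, Tnfsf8 (CD30 ligand) at 0.764 to 1.82 FPKM and Tnfsf9 (4-1BB ligand) at 0.488 to 1.89 FPKM over the 6 libraries. Their limma adjusted p ran from 0.866 to 0.961. Cd70, the ligand of CD27, reached 1.10, 0.717 and 0 FPKM among WT libraries and is listed at 0 for each of the other 3. Tnfsf15 (TL1A, the ligand of death receptor 3) and Tnfsf18 (GITR ligand) reached at most 0.181 and 0.378 FPKM. Tnfsf15 was higher without overlap, at 0.0867 to 0.181 FPKM in labelled-deficient libraries against 0 to 0.0226 FPKM in WT, near the floor and not tested.

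Tnfrsf22, Tnfrsf23 and Tnfrsf26, neighbours on chromosome 7, were uneven. Tnfrsf26 was at 6.06, 11.95 and 4.41 FPKM across the WT libraries, against 2.14, 4.26 and 7.56 FPKM across the labelled-deficient ones, with overlap (limma adjusted p = 0.821). Tnfrsf23, a decoy receptor of TRAIL, was at 13.5 FPKM in WT replicate 1, 2.72 FPKM in WT replicate 2 and 0.125 to 0.688 FPKM in the other 4 libraries, too few above 1 FPKM for a test. Tnfrsf22 was at 0.332 to 1.89 FPKM and overlapped. These neighbours are similar in sequence, so reads may be split between them. Tnfrsf19 (TROY), known from epithelial and neural progenitors, was at 0.0924 to 0.851 FPKM.

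In all, 18 of the 26 tested members overlapped between the groups, with limma adjusted p from 0.467 to 0.987. The 10 members not tested were Cd70, Tnfrsf11a, Tnfrsf11b, Tnfrsf12a, Tnfrsf17, Tnfrsf19, Tnfrsf23, Tnfsf13b, Tnfsf15 and Tnfsf18. By role, 2 of 15 receptors tested rose and 0 fell, and of 11 ligands tested 0 passed in either direction (4 at an unadjusted p under 0.05 in limma, Lta and Ltb higher and Tnfsf10 and Tnfsf11 lower). Over all genes, 0.642% were called higher and 0.108% lower, and 5.68% and 4.35% were so at an unadjusted p under 0.05.

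Family genes with other names gave 0 calls. Fasl, the death ligand of cytotoxic cells, was at 3.88, 8.75 and 2.29 FPKM over WT replicates 1 to 3, and labelled-deficient replicates 1 to 3 gave 0, 0 and 0.339 FPKM, without overlap (log2 difference -2.29 ± 0.53, SE, limma adjusted p = 0.101). Its receptor Fas overlapped, at 1.20 to 11.1 FPKM in WT and 0.483 to 13.6 FPKM in labelled-deficient libraries. Cd27, the receptor of CD70 on T cells and progenitors, shares its locus with Tapbpl, and the joint unit had a log2 difference of -0.99 (adjusted p = 0.499). This unit was at 61.9, 67.5 and 96.5 FPKM in WT replicates 1 to 3. Labelled-deficient replicates 1 to 3 gave 54.4, 31.9 and 28.3 FPKM, without overlap. With Fasl, 2 of 5 tested genes of this list were lower without overlap, where 6.56% of all genes were. Of the 8 genes of this list 5 were tested, 0 were called by limma and 1, Fasl, had an unadjusted p under 0.05. Over all genes 4.35% were lower at that level.

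Downstream of the receptors, no signalling gene passed over all genes. Of 23 adaptor and kinase units, 0 rose and 0 fell in limma, with 1 higher and 1 lower at an unadjusted p under 0.05, near the 5.68% and 4.35% of all genes. Traf1, Traf3, Tab1 and Ikbkb were higher without overlap, 4 of 23 where 8.67% of all genes were, and Traf4 was lower without overlap (6.56% of all genes). The higher one at an unadjusted p was Tab1, a partner of the kinase TAK1, at 2.27, 5.07 and 2.81 FPKM among WT libraries, compared with 10.1, 17.1 and 6.31 FPKM among labelled-deficient ones (adjusted p = 0.331). The lower was Traf4, an adaptor of epithelial and early developmental cells, at 15.7, 10.7 and 11.0 FPKM across the WT libraries, against 4.29, 4.86 and 3.84 FPKM across the labelled-deficient ones (adjusted p = 0.234). The list's median log2 difference was 0.23, against 0.04 over all genes, with 17 differences above 0 and 6 below.

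Of 14 genes of NF-kB subunits and inhibitors, 0 rose and 0 fell in limma, and 3 of 14 were higher at an unadjusted p under 0.05, where 5.68% of all genes were. Nfkbid, a nuclear IkB protein, was at 6.59, 13.1 and 9.44 FPKM over WT replicates 1 to 3, and labelled-deficient replicates 1 to 3 gave 33.4, 32.4 and 19.2 FPKM (adjusted p = 0.205). Nfkb1 (p105/p50) was at 17.4, 24.2 and 31.7 FPKM among WT libraries, compared with 94.3, 37.9 and 46.3 FPKM among labelled-deficient ones (adjusted p = 0.417). Relb, the partner of p52 downstream of BAFF receptor, CD40 and lymphotoxin-beta receptor, was at 8.64, 8.09 and 9.78 FPKM across the WT libraries, against 24.1, 24.5 and 11.0 FPKM across the labelled-deficient ones (adjusted p = 0.458). These 3 were the members of the list without overlap, where 8.67% of all genes were higher without it. The median log2 difference was 0.58 with 11 of 14 above 0. The same B-lineage sums given above moved in this direction, and their part was not tested. Adam10 and Adam17, proteases that release several TNF family proteins from the membrane, overlapped (adjusted p = 0.831 and 0.925).

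**Figure D5:**
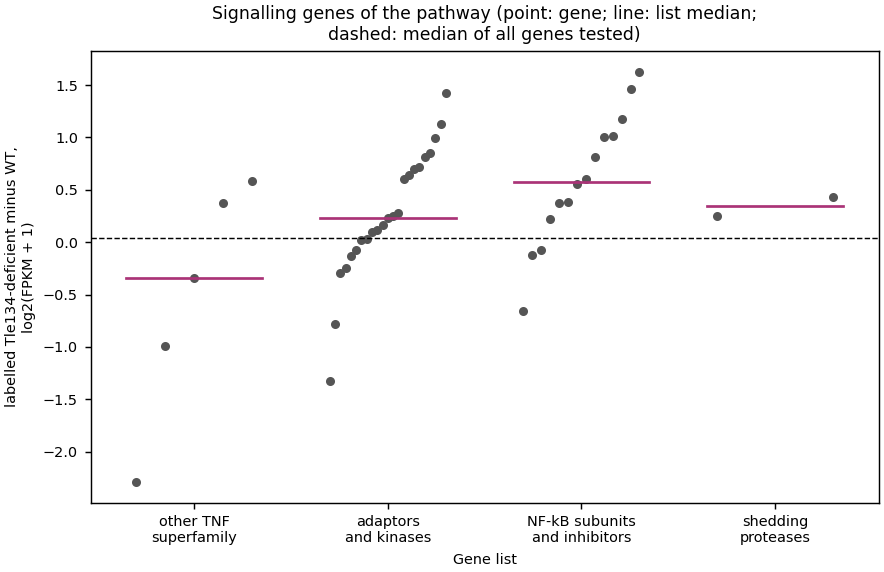
Difference between labelled-deficient and WT means on the log2(FPKM + 1) scale for each tested gene (points) of 4 lists of pathway genes, with the list median as a line and the median of all genes tested dashed. The NF-kB list has a median of 0.58 and 11 of 14 points above 0, and none of the genes shown passed over all genes.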

How the data were processed

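Gene expression was measured in 6 libraries, 1 table each, and samples were grouped by their titles. The deposited values are FPKM per locus with lower and upper bounds, per the file headers, in the layout of a Cufflinks gene table. The build mm9 and the tools TopHat2 2.1.1, featureCounts 2.0.1 and Trimmomatic 0.38 appear, without roles, in the list drawn from the submitters' processing notes. The annotation and any use of strand were not given in the sources used here. FPKM is relative to its own library. Fragments were approximated from the bounds, taken as 2 SD on each side; multiply mapped reads make these too low, and true depth is unknown.

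Tables were joined by symbol (Python 3.11.15, pandas 2.3.3). Symbols sharing a row in any table were joined and their FPKM added, giving 23400 units, and microRNAs inside Lta and Ltb were joined to them. Genes with at least 1 FPKM in at least 3 libraries were fitted as log2(FPKM + 1) with limma 3.58.1 (R 4.3.3; group as the only term, trend, robust) and adjusted by Benjamini-Hochberg over all genes, with a threshold of 0.05. Differences on this scale understate changes of low genes. The fit was tested on simulated data. Named were members past the threshold, members without overlap, the 8 with the highest mean, those at 0 in 1 group only, and 2 per pathway list; other members are given by value or range. Relb, Traf1, Traf3, Ikbkb, Fas, Foxp3, Icos, Mpo, Ngp, S100a9, Elane, Ms4a2, Gata2, Hdc, Pdgfrb, Pecam1, Krt8, Epcam, Foxn1 and Krt5 were named after their values were seen. The same holds for Ngfr, Cd247, Gata3, Cpa3, Tpsb2, Mcpt4, Pdgfra, Col1a1 and Col1a2. Members and lists were chosen with earlier results of these data known. No batch is labelled. Alternatives were another pseudocount, no filter, upper-quartile scaling, split symbols, plain limma, a replicate block and leaving out each library. One B-lineage marker is not reported here and is left out of the counts and sums.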

Additional observations from a re-analysis of the deposited data

How the results depend on the processing

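Of 312 differences of single members under 12 alternatives, 280 kept their direction and their side of the threshold, 14 lost a call (7 each of Tnfrsf13c and Cd40, which stayed higher) and 18 changed sign, none of these a call. Of all genes, 71 were called higher and 12 lower; the counts were 0 and 0 without a filter (of 18942 genes, with 1181 at an unadjusted p under 0.05 in limma), 1 and 1 with the replicate block, and 0 to 56 and 0 to 11 when 1 library was left out. Lower calls were 3 with a pseudocount of 0.1 and 4 without trend and robust steps. The 2 members called became 1 with a pseudocount of 0.1, 0 without a filter, 0 with the replicate block (adjusted p = 0.0738 for Tnfrsf13c and 0.0767 for Cd40), where 1 of 14 B-lineage markers was called, and 0 to 2 when 1 library was left out. The cause was not tested. Same-numbered libraries deviated together with correlations of 0.08, 0.18 and 0.17, not all above 0.1, so the numbers were not taken as pairs, although each library correlated best with its own number. Upper-quartile scaling moved the median of all genes by -0.12 and changed no member's direction or call. Leaving out 1 library took the log2 difference from -0.049 to 1.15 for Tnfrsf10b, -0.26 to 1.13 for Tnfrsf25, -0.58 to 0.0075 for Tnfrsf1b, -0.70 to 0.051 for Tnfsf14, -0.72 to 0.25 for Tnf, -0.57 to 0.24 for Tnfsf4, -0.72 to 0.14 for Tnfrsf8, -0.16 to 0.45 for Tnfrsf22, -0.32 to 0.75 for Tnfsf12/Tnfsf13 and -1.06 to 0.55 for Cd40lg. For Tnfsf12/Tnfsf13 it was -0.058 with a pseudocount of 0.1. Depth limits low members: the intervals imply 0 to 18.0 fragments per library for Tnfrsf8.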
